A study of Mus musculus with 6 samples.

Results

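Mouse embryonic fibroblasts that carried short hairpin RNAs (shRNAs) against the ethanolamine kinases, labelled shEtnk1/2, were compared on day 2 of reprogramming with cells that carried an shRNA against luciferase, labelled shLuc. The comparison uses 3 of the 6 RNA libraries of the series: the single shEtnk1/2 library and the 2 libraries labelled shLuc. The 6 libraries share their mouse strain, CBA/CaJ X C57BL/6J, and these 3 share the reprogramming medium iCD1, which contains ethanolamine (Etn). The other 3 libraries, used here only as a second reference, were shPcyt2, directed at the enzyme that makes CDP-ethanolamine, shPebp1, directed at phosphatidylethanolamine-binding protein 1, and shLuc-Etn, which carried shLuc in iCD1 without Etn. The members are the genes whose level averaged 1 RPKM or more across all 6 libraries, short RNAs (rows named Mir, Snor, Snord, Scarna or Rnu) left out. RPKM is the number of reads per kilobase of transcript, scaled to the reads of the library. By this rule 11814 of the 18301 gene symbols of the table were described. At the edge of the rule, Bmp15 (mean 1.0004 RPKM) and 9330117O12Rik lay just inside and Vtcn1 (0.9978 RPKM) and Fat3 just outside.

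Cells make phosphatidylethanolamine, a main phospholipid of their membranes, from ethanolamine by the CDP-ethanolamine branch of the Kennedy pathway. Ethanolamine kinase adds phosphate to ethanolamine, Pcyt2 turns phosphoethanolamine into CDP-ethanolamine, and the ethanolamine phosphotransferases Ept1 and Cept1 join it to diacylglycerol. When fibroblasts are reprogrammed with the factors Oct4, Sox2, Klf4 and Myc they pass early through a mesenchymal-to-epithelial transition, in which genes of the extracellular matrix and of contractile fibres are shut off and genes of epithelial junctions are switched on. The question of the series is whether the CDP-ethanolamine pathway speeds that transition.

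The shEtnk1/2 library held 19623532 reads in genes, beside 20020465 and 19535038 in the libraries labelled shLuc and 18467583 to 19233255 in the others. The group shEtnk1/2 has 1 library, so no difference below has a replicate of the knockdown, and p-values rest on the spread between the libraries labelled shLuc (the controls), which may be technical because the labels do not say that they were separate cultures. The second of these goes against its label in 1 gene: Pebp1, the target of shPebp1, stood at 101 RPKM in the library labelled shLuc replicate 2, at 99.6 in shPebp1, and between 210.5 and 263 in the other 4 libraries. Whatever sets that library apart also enters the spread behind the p-values, and how far it does was not tested. Levels or differences are therefore given for each library labelled shLuc separately in many of the results below. The fibroblast label was met by its markers: the summed level of 21 fibroblast genes in the table was 3600 RPKM in shEtnk1/2 and 3360 and 3190 in the libraries labelled shLuc. Of the markers of other cells, 6 of 14 for macrophages, 9 of 16 for skeletal muscle, 9 of 10 for endothelium, 6 of 9 for keratinocytes and all 3 for blood lay under 1 RPKM in these 3 libraries. The summed macrophage markers, with Lyz2 as the main one, were 71.0 against 56.8 and 59.8 RPKM, the skeletal muscle markers 12.2 against 17.2 and 20.7, and the cartilage markers 152 against 134 and 130. Of the 5 cartilage markers that averaged 1 RPKM or more, 2 lay above both controls and 2 below both. Their median difference from the shLuc mean was -0.10 in log2(RPKM + 1). The cartilage marker called higher below, Col11a1, also stands in the list of collagens. The part of other cell types in the results below was not tested, and in bulk RNA fewer cells of a type and less RNA per cell cannot be told apart.

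Promoters of 2 genes whose groups the results turn on are shown first, as the 250 bases before the transcription start (RefSeq, build GRCm38.p6), each chosen after its values were seen. Spint2 encodes an inhibitor of membrane proteases of epithelia, and Postn encodes periostin, a matrix protein of mesenchymal cells. The Spint2 window is chr7:29281978-29282227 on the minus strand, with the E-box motif CAGGTG in capitals, which it holds 3 times. The Postn window is chr3:54360857-54361106 on the plus strand, with the TATA-box letters TATAAA in capitals, which it holds 1 time.
Spint2: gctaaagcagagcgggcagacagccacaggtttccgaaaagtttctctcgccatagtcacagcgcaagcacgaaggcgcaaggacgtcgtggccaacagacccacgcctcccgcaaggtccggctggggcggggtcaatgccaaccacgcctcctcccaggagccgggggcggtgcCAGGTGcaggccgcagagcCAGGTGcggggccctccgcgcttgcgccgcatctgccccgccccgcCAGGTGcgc
Postn: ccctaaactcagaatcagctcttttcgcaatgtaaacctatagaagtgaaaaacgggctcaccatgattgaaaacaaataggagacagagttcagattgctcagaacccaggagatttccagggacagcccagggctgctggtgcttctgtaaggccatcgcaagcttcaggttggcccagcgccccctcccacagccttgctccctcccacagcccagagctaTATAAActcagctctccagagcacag
Both motifs were searched on both strands, as CAGGTG or CACCTG and as TATAAA or TTTATA. The E-box letters stood in the window of 13.9% of 8956 described genes with a promoter in the table, of 12 of 86 genes called higher in shEtnk1/2, of 17.7% of 192 called lower and of 6 of 11 epithelial genes. The TATA letters stood in 6.05% of all 8956 windows, in 15.1% of those of genes called higher and in 4.69% of those called lower. A match describes the letters of the window and no binding was measured.

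The targeted gene was lower, but not gone. Etnk1, the ethanolamine kinase of most tissues (mm10, chromosome 6, 143167230 to 143208547, plus strand), stood at 21.02 RPKM in shLuc replicate 1, 21.4 in the library labelled shLuc replicate 2 and 12.5 in shEtnk1/2, and at 19.8, 23.7 and 22.02 in shPcyt2, shLuc-Etn and shPebp1. The 5 libraries without an Etnk shRNA lay within a narrow band and shEtnk1/2 alone lay below it. Its level was 59.1% of the shLuc mean, a fall of 0.71 in log2(RPKM + 1) (SE 0.09, limma with Benjamini-Hochberg adjustment over all genes, adjusted p = 0.00401). Etnk2, the second kinase, was hardly expressed: 15 reads gave 0.333 RPKM in shEtnk1/2 (95% Poisson interval 0.186 to 0.549), beside 0.457 and 1.0031 RPKM in the libraries labelled shLuc. It lay below the 1 RPKM filter and was not tested. Of the 7 genes in the list for this pathway 4 passed the filter and Etnk1 was the 1 that changed. Pcyt2, the enzyme after the kinase, was at 35.6 RPKM against 42.02 and 40.05, a difference of -0.20 (adjusted p = 0.206). The phosphotransferase genes lay close to the controls, with Ept1 at a difference of 0.04 and Cept1, between the controls, at 0.05. Of 20 genes of other phospholipid synthesis routes above the filter, none passed the test at a median difference of -0.02, which turned to 0.05 after scaling to a common median ratio; the most negative were Agpat2 (-0.40), an acyltransferase on the way to phosphatidic acid, and Pcyt1b (-0.31), an enzyme of phosphatidylcholine synthesis. Neither did any of 9 genes of ethanolamine uptake and release, among them Slc44a2 (0.21) and the sphingosine phosphate lyase gene Sgpl1 (0.15), an enzyme that releases phosphoethanolamine.

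Across all genes, limma called 124 genes higher in shEtnk1/2 than in shLuc, 1.05% of the 11814, and 267 lower, 2.26% (391 in either direction, 3.31%). At an unadjusted p under 0.05 there were 602 higher and 1639 lower. The called genes differed by a median of 0.47 upwards and -0.49 downwards in log2(RPKM + 1), a scale that understates the change of genes with low values. None of the called genes lay between the libraries labelled shLuc. Without any test, 2952 genes (25.0%) lay above both of them and 6153 (52.1%) below both. By at least 0.5 these counts were 54 (0.457%) and 146 (1.24%), and by at least 1 they were 1 (0.00846%) and 9 (0.0762%). The median gene differed by -0.06, so that the balance of calls depends on the scaling: calls that were higher made up 31.7% of all calls on the deposited scale, 59.6% after scaling to a common median ratio and 67.6% after a trend with transcript length was removed. Of 110 called genes named in the text, 68 stayed called under all 4 rescalings (a common median ratio, quantile normalization, the length trend removed, and the length and GC trends removed). The 11 that lost the call under all 4 had all fallen: Col4a1, Cox5b, Fabp3, Gsta4, Hes6, Mcm7, Nes, Notum, Nt5e, St14 and Trp53. The call held under 1 of the 4 for Abca1, Rplp2, Stmn2 and Wisp1, under 2 for 12 genes and under 3 for 15. For 3 of these genes, 1700084C01Rik, Cml3 and Wisp1, no GC content was at hand, so that the last rescaling gave no value and is counted as not held. The libraries labelled shLuc themselves differed by a median of 0.09 per gene, and shEtnk1/2 from their mean by 0.12. All calls that follow share a limit, seen in fits where the source of the spread changed too. When a library labelled shLuc was left out, the spread came from shPcyt2, shLuc-Etn and shPebp1 fitted as 1 group. With either library labelled shLuc left out, limma called 0 genes in each direction (619 genes at an unadjusted p under 0.05 without replicate 1 and 577 without the library labelled replicate 2), and with the spread taken from 3 groups of libraries it called 0 higher and 4 lower.

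**Figure D1:**
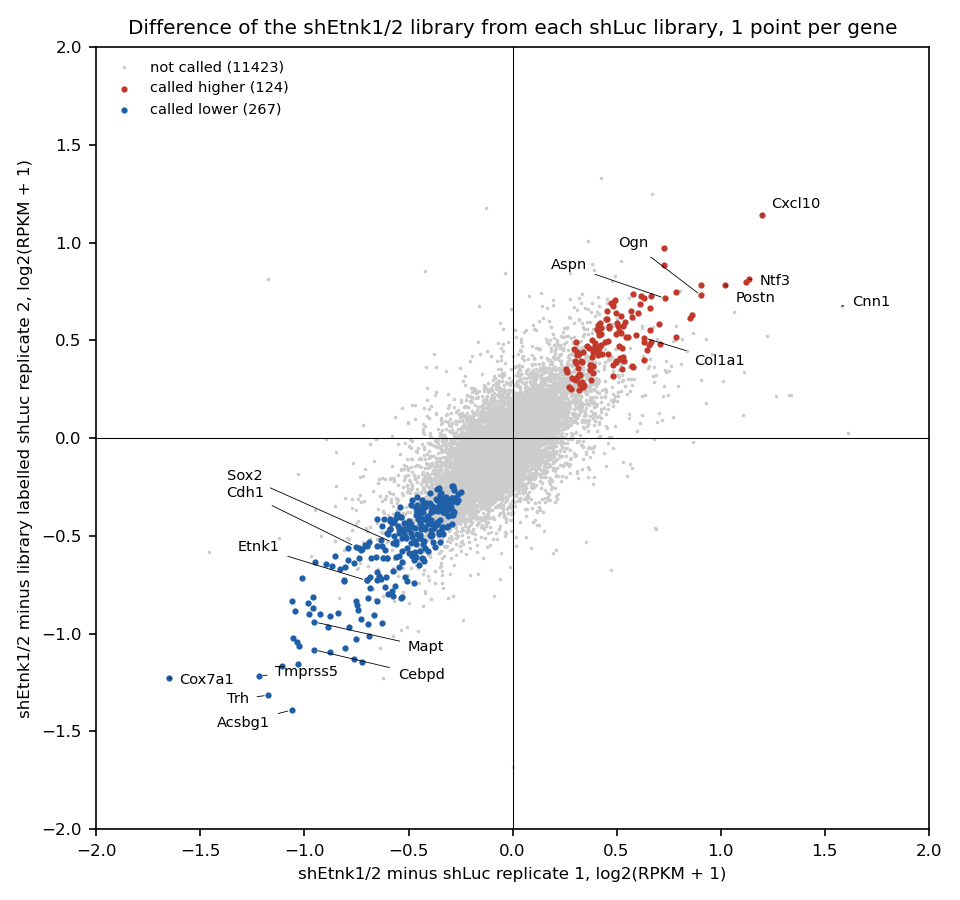
Difference in log2(RPKM + 1) of the shEtnk1/2 library from shLuc replicate 1 (x axis) and from the library labelled shLuc replicate 2 (y axis), 1 point for each of the 11814 described genes, with the 124 genes called higher by limma in red and the 267 called lower in blue. The called genes lie in the quadrants where both differences have the same sign, and Cnn1, far from the first and nearer to the second library, was not called.

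Genes of the extracellular matrix made up much of what rose. The 4 lists of fibrillar and associated collagens, small leucine-rich proteoglycans, matricellular and elastic proteins, and collagen-processing enzymes, together hold 82 genes, of which 81 passed the filter: 28 rose, 1 fell, 72 lay above both libraries labelled shLuc and 5 below both. Of all genes, 1.05% were called higher, 2.26% were called lower, 25.0% lay above both and 52.1% below both. The median difference of these 81 was 0.30, beside -0.06 for all genes. Their transcripts took 10.1% of the reads in shEtnk1/2 and 7.91% and 7.92% in the libraries labelled shLuc. In the others the share was 8.30% (shPcyt2), 8.44% (shLuc-Etn) and 7.30% (shPebp1), so shEtnk1/2 had the highest share of the 6.

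Of 19 collagen genes, 9 rose and 1 fell, with a median difference of 0.30. Col1a1, which encodes a chain of type I collagen, the main fibre of skin and bone, stood at 2322 RPKM in shLuc replicate 1, 2523 in the library labelled shLuc replicate 2 and 3600 in shEtnk1/2, and at 2683, 2581 and 2002 in shPcyt2, shLuc-Etn and shPebp1. The shEtnk1/2 value was the highest of the 6, and the rise was 0.63 and 0.51 against the 2 controls (mean 0.57, SE 0.06, adjusted p = 0.00291). The partner chain Col1a2 went from 2684 and 2672 to 3348 RPKM and type III collagen, Col3a1, from 2122 and 2119 to 2634. The rise was 0.32 for Col1a2 and 0.31 for Col3a1, on the deposited scale; quantile normalization, which equalizes the top ranks, gave -0.0948 for Col1a2, 0.21 for Col3a1 and 0.17 for Col1a1, none of which passed the test there. The genes of the fibril-regulating collagen V, Col5a1 (0.36) and Col5a2 (0.37), of the fibril-associated collagens Col12a1 (0.57) and Col16a1 (0.43), and of Col6a3 (0.30) and Col11a1 (0.30) rose as well. The gene that fell on the deposited scale, Col4a1, encodes a basement membrane collagen, and the call was lost under all 4 rescalings. It stood at 185 and 183 RPKM in the libraries labelled shLuc and 148 in shEtnk1/2 (-0.31, adjusted p = 0.0296).

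The small leucine-rich proteoglycans, which bind collagen fibrils and set their width, had the largest differences of the matrix lists, with a median of 0.55 over the 11 of 12 genes above the filter. Of these, 6 rose and none fell. Lum, lumican, stood at 279, 272 and 424 RPKM in shLuc replicate 1, the library labelled shLuc replicate 2 and shEtnk1/2, and between 285 and 318 in the other treated libraries. The controls differed little and shEtnk1/2 lay well above them (0.62, SE 0.06, adjusted p = 0.00154). Bgn, biglycan, at 684 and 613 RPKM in the controls, reached 1023 (0.66). Aspn, asporin, went from 82.2 and 83.4 to 137 RPKM (0.72, adjusted p = 0.00154), and shLuc-Etn, at 109, was the next highest library. Ogn (osteoglycin, 0.82), Kera (keratocan, 0.81) and Dcn (decorin, 0.55) completed the 6. The rise of Dcn was 0.45 against shLuc replicate 1 and 0.65 against the library labelled shLuc replicate 2.

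Among 31 matricellular and elastic proteins, 10 rose, none fell and 30 lay above both controls, at a median of 0.31. Postn was at 169.7 RPKM in shLuc replicate 1, 201 in the library labelled shLuc replicate 2, 346 in shEtnk1/2, 222 in shPcyt2, 249.9 in shLuc-Etn and 153 in shPebp1. Every other library lay below shEtnk1/2, and those without shEtnk1/2 spanned a range of their own, from shPebp1 to shLuc-Etn. The rise was 0.90 (SE 0.10, adjusted p = 0.0141). Thbs1, thrombospondin 1, went from 320.5 and 299 to 460.1 RPKM (0.57). Its relative Thbs2 rose by 0.41, tenascin C (Tnc) by 0.44, Mfap4, a protein of elastic fibres, by 0.44, fibulin 2 (Fbln2) by 0.44 and Sparc, a collagen-binding protein, by 0.36. Spp1, osteopontin, rose from 9.93 and 11.9 to 18.7 RPKM, a level near that of shLuc-Etn (17.8). Efemp1 (0.51, adjusted p = 0.131) and Ltbp2 (0.52, adjusted p = 0.0579) had differences of similar size that did not pass the test. The fibronectin gene Fn1 had a difference of 0.22 (adjusted p = 0.0804).

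Enzymes that modify collagen moved less. Of 20 such genes, 3 rose, none fell, and the median was 0.18. Lox, lysyl oxidase, which crosslinks collagen and elastin, stood at 132, 138 and 199 RPKM in shLuc replicate 1, the library labelled shLuc replicate 2 and shEtnk1/2 (0.56, SE 0.07, adjusted p = 0.00299). The related Loxl2 rose by 0.46 and the prolyl hydroxylase subunit P4ha3 by 0.53. Pcolce2, an enhancer of procollagen processing, went the other way without passing the test (-0.38, adjusted p = 0.0981). Of 20 matrix proteases and inhibitors above the filter, 3 rose, at a list median of 0.29: the metalloproteinase gene Mmp23 (13.2 and 12.5 to 20.8 RPKM, 0.65), the plasminogen activator Plat (0.52) and the inhibitor Timp2 (0.40). Mmp13, a collagenase gene (8.57, 14.7 and 18.3 RPKM), lay above both controls, but the controls lay far apart and it did not pass the test. Serpinf1, which encodes the secreted factor PEDF and is in none of these lists, had nearly equal controls, at 109 and 109 RPKM, and rose to 173 in shEtnk1/2 (0.66, adjusted p = 0.00154).

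**Figure D2:**
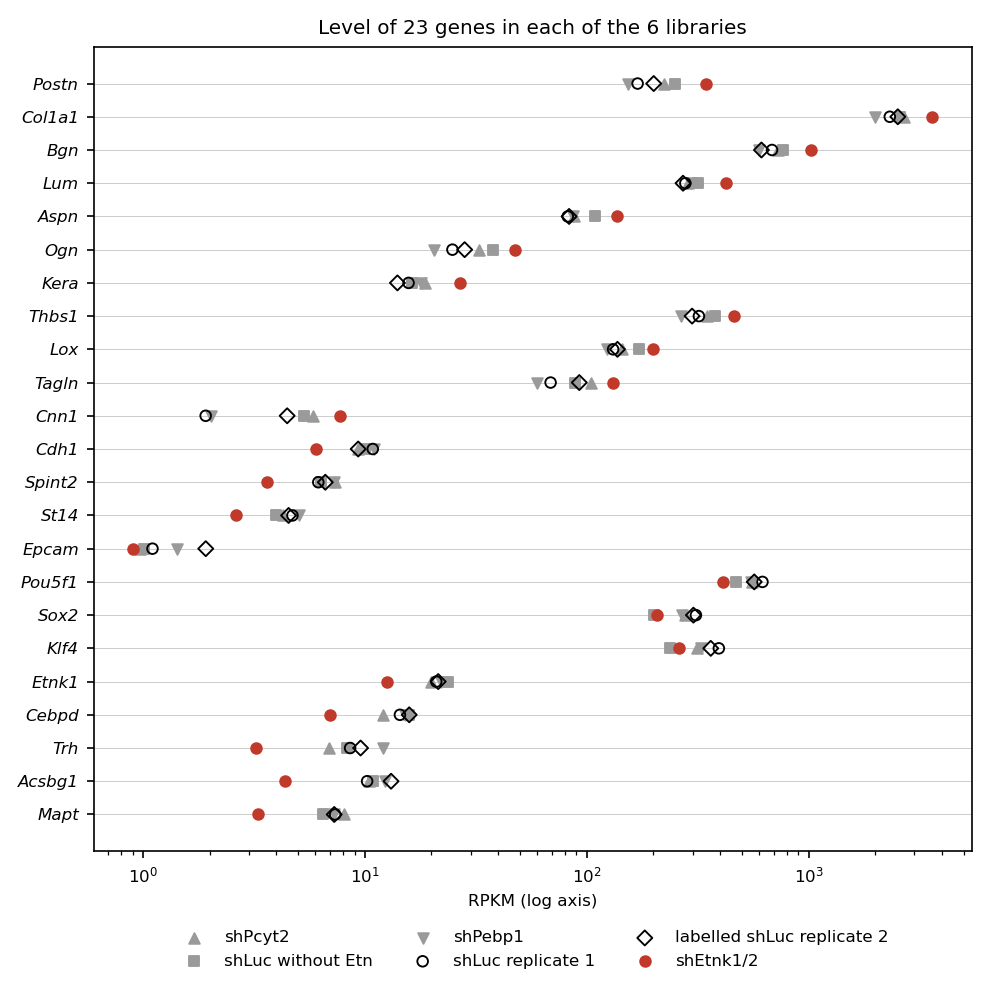
RPKM (log axis) of 23 genes in each of the 6 libraries, with shEtnk1/2 as filled red circles, shLuc replicate 1 as open circles, the library labelled shLuc replicate 2 as open diamonds and the other 3 libraries in grey. The matrix genes from Postn to Lox have shEtnk1/2 at the right of all other libraries, the epithelial genes Cdh1, Spint2 and St14 have it at the left, and Sox2 and Klf4 have it beside or to the right of shLuc-Etn.

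Genes of the contractile apparatus lay above the controls in most cases but seldom passed the test. Of 21 such genes and targets of serum response factor, 16 lay above both libraries labelled shLuc and 2 below both, at a median of 0.22. The shares of all genes were 25.0% above both and 52.1% below both. Cnn2 (calponin 2) rose by 0.38 and Tpm2 (a tropomyosin) by 0.49. Tagln, the smooth muscle protein transgelin, stood at 68.8 RPKM in shLuc replicate 1, 92.7 in the library labelled shLuc replicate 2, 132 in shEtnk1/2, 105 in shPcyt2, 88.3 in shLuc-Etn and 59.8 in shPebp1. The shEtnk1/2 value was the highest, but the controls themselves were far apart, and the adjusted p was 0.375. The same held for Acta2, smooth muscle actin (177, 233 and 317 RPKM, adjusted p = 0.389), and for Cnn1, calponin 1 (1.92, 4.48 and 7.74 RPKM, adjusted p = 0.48). Against shLuc replicate 1 alone Cnn1 differed by 1.58 and against the library labelled shLuc replicate 2 by 0.68.

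Genes used to identify fibroblasts gave 5 calls, where 1.05% of all genes were called higher and 2.26% lower. Of the 19 above the filter, 4 rose: the homeobox gene Prrx2 (0.49), the limb gene Osr2 (0.43), the mesenchymal cadherin Cdh11 (206 and 197 to 271 RPKM, 0.42) and the growth factor receptor Pdgfra (0.42). Nt5e, the surface enzyme CD73, fell from 82.1 and 75.7 to 62.1 RPKM (-0.34, adjusted p = 0.0417), a call lost under all 4 rescalings. Thy1 (0.28, adjusted p = 0.104) and the intermediate filament gene Vim (0.11, adjusted p = 0.3; -0.15 after quantile normalization) did not pass. None of the 11 transcription factor genes of the epithelial-to-mesenchymal transition above the filter passed either, at a median of 0.10. Snai1 stood at 7.91, 10.6 and 13.8 RPKM (0.54, adjusted p = 0.147), Snai2 at 24.4 in shEtnk1/2 (0.27, adjusted p = 0.131) and Zeb1 at 15.7, 14.4 and 19.003 (0.32, adjusted p = 0.114). In all 3 the shEtnk1/2 library lay above both controls. Zeb2 (0.10) and Twist1 (0.08) lay nearer to the controls.

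Genes of tendon and bone had the highest median of the lists with 10 or more genes. The lists were chosen with earlier results of these data known, so this rank may follow from the choice of members. Of 15 above the filter, 7 rose and none fell, at a median of 0.60; 4 of the 7 (Kera, Spp1, Ntf3 and Angptl1) also stand in another list. Ntf3, neurotrophin 3, stood at 1.92 RPKM in shLuc replicate 1, 2.66 in the library labelled shLuc replicate 2 and 5.43 in shEtnk1/2 (166 reads), and at 3.20, 3.02 and 1.91 in the others. It rose by 0.97 (SE 0.18, adjusted p = 0.0235). Tnmd, tenomodulin, a marker of tendon cells, rose by 0.77 to 3.24 RPKM, yet shPcyt2 (3.39) and shLuc-Etn (3.20) stood at the same height. Lrrc15, a membrane protein of activated fibroblasts, rose by 0.75, Angptl1, an angiopoietin-like secreted protein, by 0.85, and Mgp, an inhibitor of calcification, by 0.60. Cthrc1 had as large a difference (0.85) with controls at 50.1 and 67.5 RPKM, and its adjusted p was 0.291. Of 17 genes of the insulin-like growth factor axis, 3 rose and none fell: the growth factor Igf2 (404 and 462 to 632 RPKM, 0.55) and the binding proteins Igfbp2 (0.65) and Igfbp7 (0.49). Of 28 other growth factors, cytokines and receptors above the filter, 4 rose, among them Angptl2 (0.52) and Pdgfc (0.36), and Gdf15, a stress-responsive cytokine, fell (8.83 and 8.02 to 4.90 RPKM, -0.67).

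Epithelial genes lay on the other side. Of the 34 genes measured, 21 passed the filter, at a median of -0.31. Among these 4 fell, none rose, 19 lay below both libraries labelled shLuc and 1 above both. The shares of all genes were 2.26% called lower, 52.1% below both and 25.0% above both. Cdh1, E-cadherin, the adhesion molecule of epithelial junctions, stood at 10.9 RPKM in shLuc replicate 1, 9.35 in the library labelled shLuc replicate 2 and 6.04 in shEtnk1/2, and at 9.34, 10.04 and 10.98 in shPcyt2, shLuc-Etn and shPebp1. The shEtnk1/2 value was below all 5 others. The fall was 0.65 (SE 0.12, adjusted p = 0.0215). Spint2, whose promoter is given above, went from 6.18 and 6.65 to 3.64 RPKM (-0.68, adjusted p = 0.021), and St14, matriptase, the protease it inhibits, from 4.73 and 4.54 to 2.63 (-0.63). The call of St14 was lost under all 4 rescalings. Itgb4, the integrin chain of hemidesmosomes (28.99, 23.1 and 16.9 RPKM, adjusted p = 0.0815), and the claudin gene Cldn3 (5.54, 8.45 and 3.77 RPKM, adjusted p = 0.19) were lower without passing. Epcam was near the filter, at 1.11, 1.92 and 0.909 RPKM. The exception above both controls was Cdh3, P-cadherin, at 3.28, 4.18 and 6.34 RPKM (0.64, adjusted p = 0.064). Of the 4 epithelial calls, 0 passed the test with quantile normalization and 0 with the trend in transcript length removed. At a common median ratio 2 of 4 passed, and with length and GC content removed 2 of 4. The calls of Cdh1 and Spint2 each held under 2 of the 4 rescalings. The list median was -0.26 with quantiles, with length removed and at a common median ratio, and -0.24 with length and GC content removed.

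Of the 4 reprogramming factors, 3 fell. Pou5f1, which encodes Oct4, stood at 619.8 RPKM in shLuc replicate 1, 569 in the library labelled shLuc replicate 2, 412 in shEtnk1/2, 554 in shPcyt2, 472 in shLuc-Etn and 549 in shPebp1. The shEtnk1/2 library was the lowest and shLuc-Etn the next lowest. Sox2 was at 311 and 303 RPKM in the controls and 209 in shEtnk1/2 (-0.55), and here shLuc-Etn was lower still, at 200.3. Klf4 was at 394 and 362 RPKM and 262 in shEtnk1/2 (-0.53), again above shLuc-Etn (238). Myc, at 8.62, 7.99 and 7.64 RPKM, was not called (-0.11, adjusted p = 0.672). The table does not tell transgenes from the cells' own copies. Genes of early pluripotency were mostly silent: 7 of 21 passed the filter, none was called, and Nanog stood at 0.133, 0.317 and 0.135 RPKM. The largest difference was that of Tfcp2l1, a factor of naive pluripotency (3.49, 2.82 and 1.57 RPKM, -0.69, adjusted p = 0.0553).

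**Figure D3:**
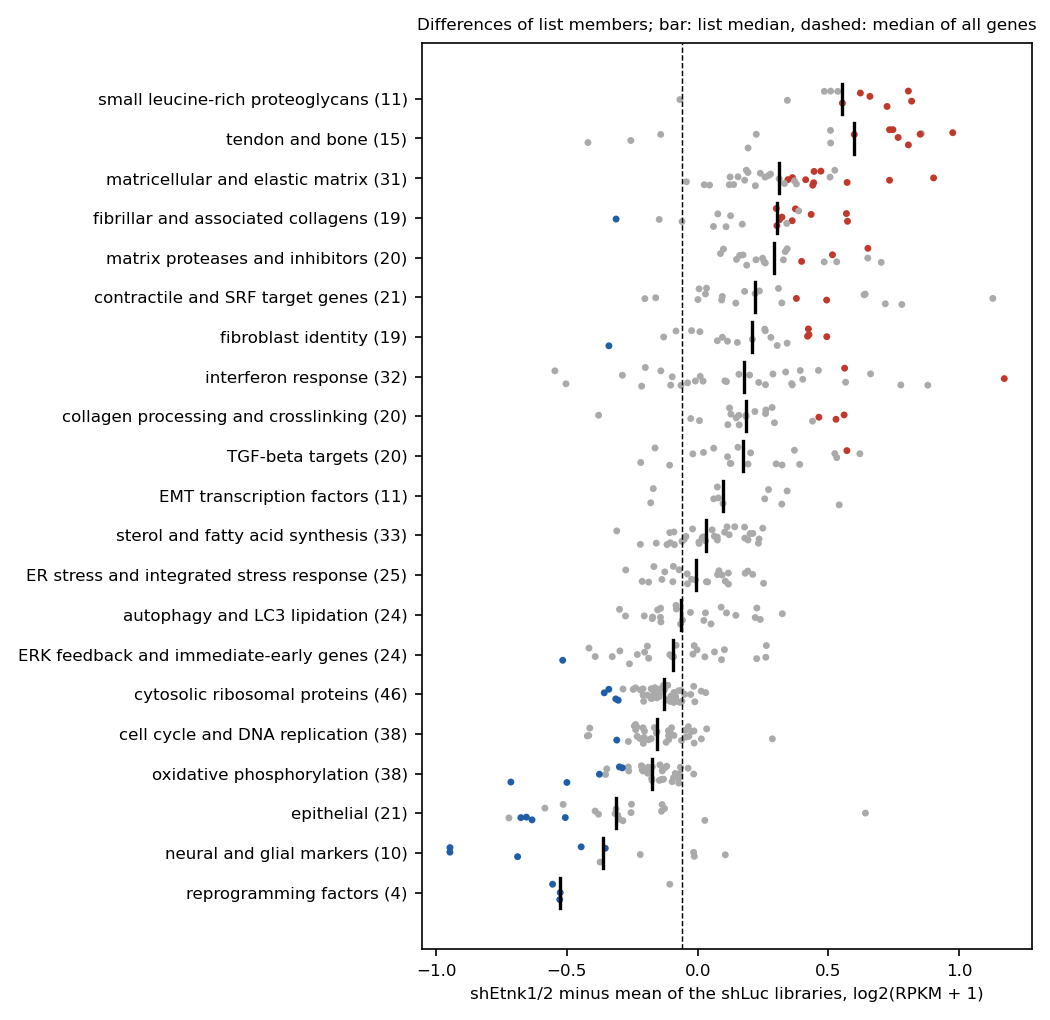
Difference in log2(RPKM + 1) between shEtnk1/2 and the mean of the libraries labelled shLuc for the members of 21 gene lists, 1 point per gene, red where limma called it higher, blue where lower and grey where neither. Black bars are list medians, the dashed line is the median of all genes (-0.06), and the number of genes stands beside each name. The proteoglycan and tendon lists lie furthest right and the reprogramming factors furthest left.

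Lists of signalling pathways held few calls in number, but in lists of this size even a few calls exceed the shares of all genes. Of all genes, 1.05% were called higher, 2.26% were called lower and 25.0% lay above both controls. Among 20 target genes of TGF-beta, a family of secreted factors that drive matrix production, 16 lay above both controls at a median of 0.17, and the collagen-binding integrin Itga11 rose (16.3 and 14.6 to 23.4 RPKM, 0.57, adjusted p = 0.0164). Of 26 ligands, receptors and Smads of the family, Tgfb3, a ligand, rose from 40.4 and 41.3 to 59.4 RPKM (0.53). Of 9 genes that report BMP signals Id3 rose (0.44), Id1 was at 0.23 (adjusted p = 0.122) and Id2 at -0.29 (adjusted p = 0.0775). Wnt genes were called in both directions: of 24, the inhibitor Sfrp2 (0.54), the receptor Fzd1 (0.44) and the target Wisp1 (0.47) rose, and the transcription factor Tcf7 (-0.52) and the extracellular inhibitor Notum (-0.34, lost under all 4 rescalings) fell. In the ERK list of 24 genes Etv5, a transcription factor that responds to the pathway, fell (19.8 and 18.9 to 13.2 RPKM, -0.52). Among 18 NF-kB targets and chemokines Ccl7, a chemokine that draws monocytes, rose (0.37), and none of 17 YAP targets was called. Of 18 integrins and collagen receptors, Itga11 and the common chain Itgb1 (0.27) rose.

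Interferon response genes rose in 2 of 32 cases, beside 1.05% of all genes, at a list median of 0.18. Cxcl10, a chemokine that interferon induces, was the gene at least 1 unit above both controls. It averaged 1.06 RPKM over the 6 libraries and 0.862 without shEtnk1/2, so it passed the filter only through the library where it is high, and its test has that limit. The counts were low: 7, 8 and 44 reads gave 0.316, 0.370 and 2.02 RPKM in shLuc replicate 1, the library labelled shLuc replicate 2 and shEtnk1/2. The rise was 1.17 (SE 0.21, adjusted p = 0.0198). It lay below 1 RPKM in the controls, and at 0.892, 1.17 and 1.56 RPKM in shPcyt2, shLuc-Etn and shPebp1. Rtp4, a chaperone of receptor transport, rose by 0.56 to 12.3 RPKM, with shLuc-Etn (13.5) and shPebp1 (12.3) as high. Against the other 3 treated libraries none of the 32 was called and the list median was 0.05.

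The genes that fell furthest belonged to no single list and were of low to middle abundance. There were 9 that lay at least 1 unit below both controls. Trh, the precursor of thyrotropin-releasing hormone, stood at 8.60, 9.58 and 3.25 RPKM in shLuc replicate 1, the library labelled shLuc replicate 2 and shEtnk1/2, and at 6.94, 8.31 and 12.1 in shPcyt2, shLuc-Etn and shPebp1. It fell by 1.24 (SE 0.12, adjusted p = 0.00154), and every other library held at least 6.94 RPKM. Acsbg1, a synthetase that activates long fatty acids, went from 10.3 and 13.2 to 4.40 RPKM (-1.23). Dio3, the imprinted deiodinase that inactivates thyroid hormone, went from 3.80 and 3.92 to 1.35 RPKM (-1.04), from 143 and 144 reads to 50. Msc, musculin, a repressor of muscle genes (-1.09), the serine protease Tmprss5 (-1.22), the acetyltransferase-like Cml3 (-1.14), the fetuin gene Fetub (-1.04) and the uncharacterised 1700084C01Rik (-1.04) fell as far. Cox7a1, a subunit of cytochrome oxidase of muscle, rests on 1 read in shEtnk1/2 against 19 and 12, 6.50% of the pooled control level with an exact binomial 95% interval of 0.160% to 39.02%, which like the Poisson interval above covers counting error only. Of the other genes called furthest below, Ntm, a neural adhesion protein, differed by -0.93, Adap1, an adaptor of Arf signalling, by -0.87 and Glb1l2, a galactosidase-like protein, by -0.91. Among genes that averaged 100 RPKM or more, Stmn1, a regulator of microtubules, fell from 191 and 189 to 129 RPKM (-0.55), and the histone variant H2afz from 295 and 311 to 229.7 (-0.40).

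Cebpd, a transcription factor of the C/EBP family, lay -0.95 from shLuc replicate 1 and -1.08 from the library labelled shLuc replicate 2. It stood at 14.4, 15.9 and 6.96 RPKM in shLuc replicate 1, the library labelled shLuc replicate 2 and shEtnk1/2, and at 12.04, 15.9 and 15.3 in the other treated libraries. Its fall of 1.02 (adjusted p = 0.00182) was not shared by the list of 13 C/EBP and glucocorticoid-response genes, where no other member was called and the median was 0.02. Ano1, a chloride channel, fell by 0.91 from 33.2 and 31.1 to 16.6 RPKM. Genes that mark neural and glial cells fell in 5 of 10 cases, beside 2.26% of all genes, at a median of -0.36. Mapt, the microtubule protein tau, stood at 7.37, 7.29 and 3.32 RPKM (-0.95, adjusted p = 0.00425), with the other treated libraries between 6.49 and 8.08. Avil, advillin, an actin-binding protein of sensory neurons (-0.95), Stmn2, a growth cone protein (-0.45), and the intermediate filament Nes (-0.35, lost under all 4 rescalings) were among the others that fell. The summed level of the 20 neural and glial markers in the table was 167 RPKM in shEtnk1/2 and 203 and 205 in the libraries labelled shLuc, the lowest of the 6 libraries.

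Metabolic and stress genes were little changed. None of 33 genes of sterol and fatty acid synthesis (median 0.03), 25 of endoplasmic reticulum stress (-0.01), 24 of autophagy (-0.06), 21 of glycolysis (-0.07), 13 heat shock genes (-0.09) or 14 of mitochondrial phosphatidylethanolamine import and cristae (-0.02) was called, beside a median of -0.06 for all genes. Of these medians those of reticulum stress, autophagy and mitochondrial import turned their sign when the libraries were scaled to a common median ratio, to 0.06, 0.00 and 0.04, and that of glycolysis when trends with length and GC content were removed, to 0.00. Of 21 genes of lipid handling, at a median of -0.08 that turned to 0.02 with the length trend removed, 3 fell: Acsbg1, the lipid exporter Abca1 (14.3 and 14.99 to 10.2 RPKM, -0.48) and the fatty acid carrier Fabp3 (-0.43). Of these 3 calls, 1 was left at a common median ratio, with quantiles and with the length trend removed, and 2 with length and GC trends removed. Of 38 cell cycle genes 32 lay below both controls at a median of -0.16, beside 52.1% of all genes below both, and Mcm7, a subunit of the replicative helicase, fell (-0.31, adjusted p = 0.0475). That is 1 call of 38, near the 2.26% of all genes, and it was lost under all 4 rescalings. Trp53 fell by 0.37 on the deposited scale, the single call among 19 genes of senescence and p53, and lost it under all 4 rescalings.

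Subunits of oxidative phosphorylation all lay below both controls, 38 of 38, beside 52.1% of all genes, at a median of -0.17, and 5 fell. Ndufa12, of complex I, stood at 73.02, 74.5 and 44.6 RPKM (-0.71, adjusted p = 0.00182) and at 36.99 in shLuc-Etn. Cox5b (-0.38, lost under all 4 rescalings) and Ndufa2 (-0.50) fell too, and Ndufa2 was lower again in shLuc-Etn, at 23.1 RPKM against 33.4. Cytosolic ribosomal proteins lay below both controls in 41 of 46 cases at a median of -0.13, and 4 fell, such as Rpl28 (-0.36) and Rplp2 (-0.34). The median transcript length was 690.5 nt in the oxidative list and 742 nt in the ribosomal list, beside 2952 nt for all genes, and short transcripts as a class were lower in shEtnk1/2. The 326 genes of at most 700 nt had a median difference of -0.17 and 46 of them fell (14.1%), beside a median of -0.04 and 28 falls (1.22%) among the 2288 genes over 5000 nt. Between the libraries labelled shLuc the same classes differed by -0.03 and 0.01. With the trend in length removed, the medians of the oxidative and the ribosomal list were -0.04 and -0.00, with 1 of the 5 and 0 of the 4 called. That of the 31 matricellular genes was 0.36, with 9 of 10 called.

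**Figure D4:**
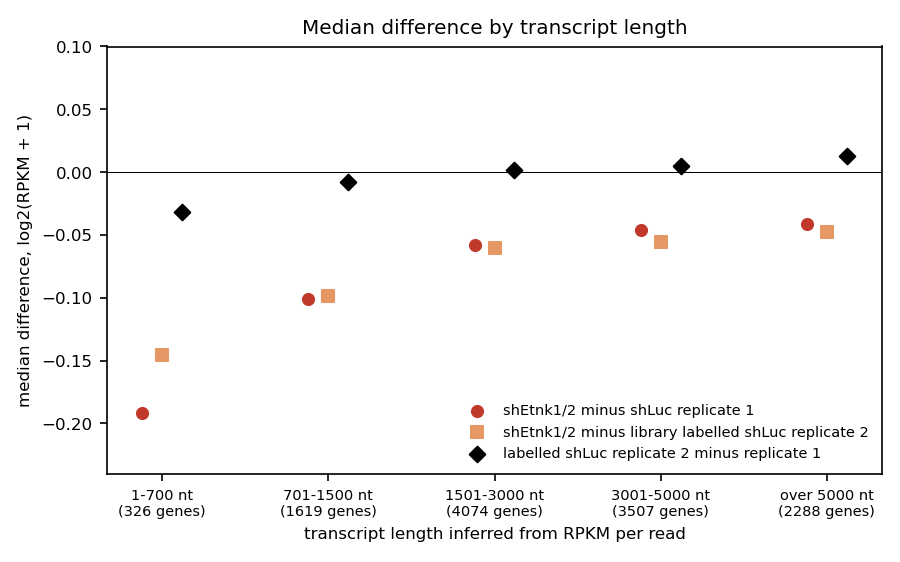
Median difference in log2(RPKM + 1) of genes in 5 classes of transcript length, for shEtnk1/2 minus shLuc replicate 1 (red circles), shEtnk1/2 minus the library labelled shLuc replicate 2 (orange squares) and the second minus the first of these controls (black diamonds). The shEtnk1/2 library lies lowest in the shortest class against both controls, at -0.19 and -0.15, while the controls differ there by -0.03.

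The mean of the other 3 treated libraries gave a second reference that contains no shLuc library in full medium. Against it limma called 75 genes higher (0.635%) and 108 lower (0.914%), with the spread still taken from the libraries labelled shLuc. Of genes not yet named, Olfml2b, an olfactomedin-like matrix protein, was higher by 0.72 (adjusted p = 0.00387) and Lrrc32, a membrane anchor of latent TGF-beta, by 0.56 (adjusted p = 0.0126). Col1a1 was higher by 0.58 (adjusted p = 0.003), Postn by 0.76 (0.026), Ogn by 0.66 (0.00655) and Kera by 0.57 (0.0168). The 81 matrix genes had a median of 0.28 against this reference and 0.30 against shLuc. In the other direction Etnk1 was lower by 0.75 (adjusted p = 0.00387), Trh differed by -1.22, Cml3 by -1.28, Acsbg1 by -1.18 and Cebpd by -0.94. Cdh1 (-0.66, adjusted p = 0.0215) and Spint2 (-0.78, adjusted p = 0.0105) passed the test here, and St14 (-0.58, adjusted p = 0.0634) did not. Of the reprogramming factors Pou5f1 passed (-0.34, adjusted p = 0.0293), and Sox2 (-0.24, adjusted p = 0.0774) and Klf4 (-0.15, adjusted p = 0.334) did not. No oxidative phosphorylation or ribosomal protein gene was called.

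**Figure D5:**
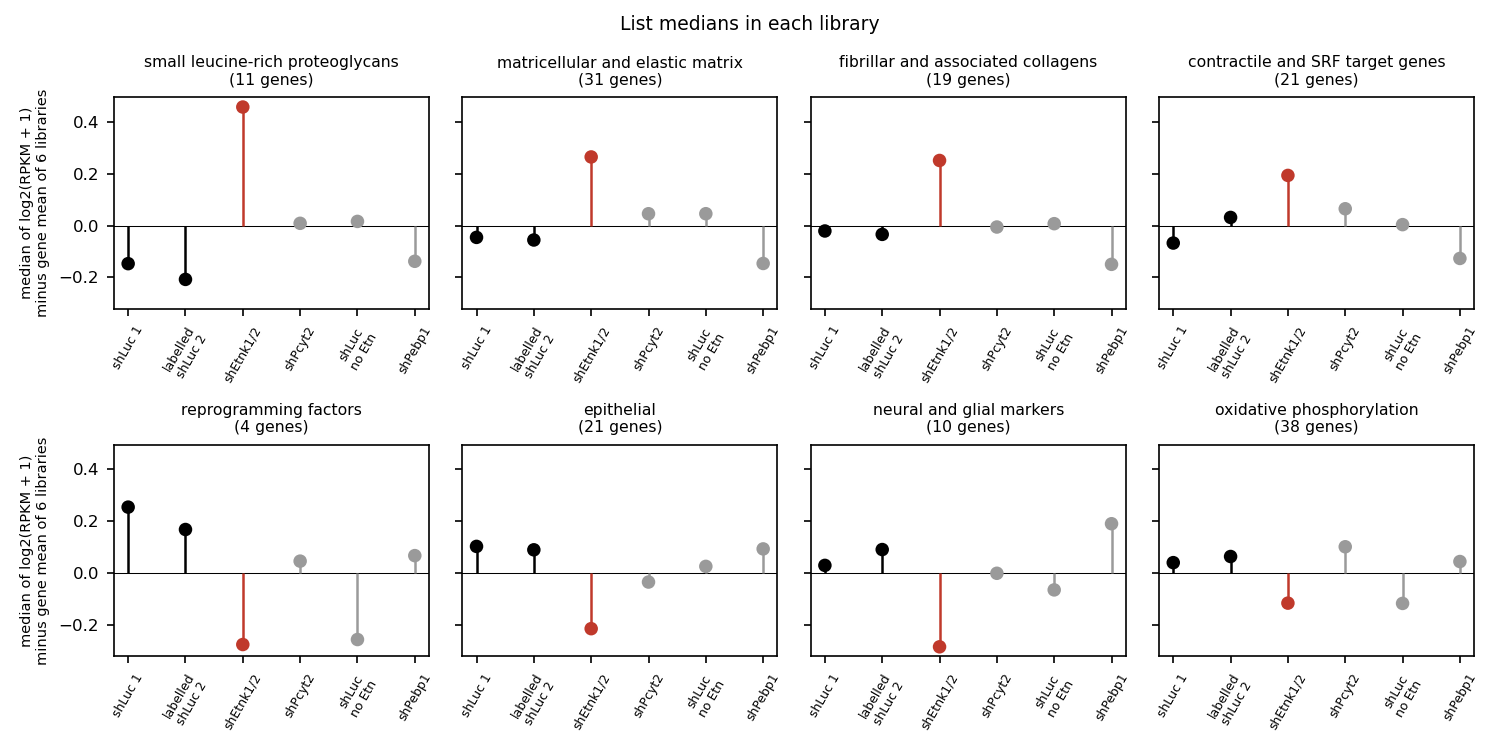
Median, over the genes of 8 lists, of log2(RPKM + 1) minus each gene's mean over the 6 libraries, 1 point per library. The shEtnk1/2 library (red) is highest in the 4 upper panels and lowest in the reprogramming, epithelial and neural panels, while in the reprogramming and oxidative phosphorylation panels shLuc-Etn lies beside it.

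Over all genes, shEtnk1/2 was the lowest of the 6 libraries in 3401 genes (28.8%) and the highest in 1420 (12.0%). The other libraries were lowest in 1261 to 2561 genes and highest in 1639 to 2714. Genes called higher were abundant, with a median mean level of 48.9 RPKM, and those called lower had 20.7, beside 12.1 for all described genes. In the cellular component terms of the deposited table, a proteinaceous extracellular matrix was named for 20.8% of 120 genes called higher, 0.844% of 237 called lower and 1.41% of all 10663 with a term. The extracellular space was named for 32.5%, 6.33% and 4.75% of them. A mitochondrial location was named for 3.33%, 19.8% and 11.7%, and a nuclear one for 11.7%, 32.9% and 34.3%. The genes called higher took 10.4% of the reads in shEtnk1/2 against 7.69% and 7.76% in the libraries labelled shLuc, and those called lower took 1.91% against 2.59% and 2.57%. The direction of these shares is set by how the genes were chosen, so they describe only the amount of RNA involved.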

How the data were processed

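RNA-seq was made from 6 libraries of mouse embryonic fibroblasts, 2 labelled shLuc and 1 for each other group. The authors deposited 1 table of RPKM values per gene; the aligner was Bowtie 0.12.2 and the build mm10, per the submitters' processing notes, with gene models, counting program and strand setting not given in the sources used here. Whole reads were recovered from the deposited RPKM in 18303 of 18303 rows (within 1e-05 reads), 18467583 to 20020465 per library. The 2 second lines of a symbol were dropped, and 26 symbols turned into dates were kept as listed. For genes that averaged 1 RPKM or more, log2(RPKM + 1) was fitted by limma 3.58.1 (R 4.3.3) with trended, moderated variance, a model of 5 groups with 1 residual degree of freedom and 9.24 prior degrees of freedom, and Benjamini-Hochberg adjustment at 0.05. The fit was also run on simulated counts. These held no library-wide shift and no trend with length, so that run cannot vouch for the calls in these data. The members, the 52 gene lists and the tests were chosen with earlier results of these data known. Genes are named if they were targets, among the 20 called genes furthest above or below both controls, the 10 furthest at 100 RPKM or more, the 10 highest or lowest against the other treated libraries, called or among the 6 largest differences in a list, or in a fixed panel. Alternatives were the pseudocount, the filter, scaling, voom on recovered reads, the source of the spread and each library labelled shLuc left out. Intervals are exact at 95% and cover counting error only. Python 3.11.15, pandas 2.3.3, numpy 2.4.6, scipy 1.17.1 and matplotlib 3.10.9 were used. A few genes called or named by these rules are not reported here.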

Additional observations from a re-analysis of the deposited data

How the results depend on the processing

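Against shLuc, 124 genes higher and 267 lower became 0 and 0 with no filter on low values (2131 genes at an unadjusted p under 0.05), 334 and 453 with limma-voom on recovered reads, 235 and 560 with the short RNAs left out of the fit, and 0 and 4 with the spread from 3 groups (1063 at an unadjusted p under 0.05). Quantile normalization gave 77 and 63. The genes lower were 90 at a common median ratio, 55 with the length trend removed and 94 with length and GC trends removed, an alternative chosen after seeing the data. Without either shLuc replicate, the counts ranged from 0 to 0 in both directions. Against the other treated libraries, 75 higher and 108 lower became 0 and 0 with no filter, 45 and 37 with quantile normalization, 269 and 273 with voom, 167 and 289 without short RNAs, and 0 and 1 with the spread from 3 groups. There were 115 higher with a filter at 5 RPKM, and 50, 45 and 67 lower at a common median ratio, with length and with length and GC removed. Without either shLuc replicate there were 0 to 0 higher and 2 to 2 lower. Of genes at least 1 unit from both shLuc libraries, 1 above and 9 below, there were 6 and 36 with a pseudocount of 0.1, 0 and 5 with a filter at 5 RPKM, and 5, 4, 5 and 3 below at a common median ratio, with quantiles, with length and with length and GC removed. With either library labelled shLuc left out there were 5 to 14 above and 16 to 20 below. Quantile normalization turned the difference of Col1a2 to -0.0948 and of Vim to -0.15. The difference of Cept1 was -0.00554 without shLuc replicate 1 and 0.11 without the library labelled replicate 2, and that of Pebp1, whose level goes against the label of the latter, was 1.18 and -0.13. No other named and tested gene turned its sign under these settings. The cause of these changes was not tested. In the fits without 1 of the libraries labelled shLuc, the other treated libraries formed 1 group and gave the spread. No paired analysis was possible because the treated groups have 1 library each and share fewer than 2 replicate numbers. Depth limits genes near 1 RPKM.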

Other observations

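Imprinted growth genes were called in both directions. Of 17 above the filter, 4 rose and 1 fell, at a median of 0.13, where 1.05% of all genes were called higher and 2.26% lower. Igf2, among those that rose, and Dio3, the gene that fell, are already given above. Mest, a hydrolase-like protein of fetal growth, stood at 43.6 RPKM in shLuc replicate 1, 41.2 in the library labelled shLuc replicate 2, 65.2 in shEtnk1/2, 46.6 in shPcyt2, 58.2 in shLuc-Etn and 45.6 in shPebp1. The shEtnk1/2 library was the highest and shLuc-Etn the next (0.61, adjusted p = 0.00413). H19, a noncoding RNA next to Igf2, went from 749 and 788 to 945 RPKM (0.30, adjusted p = 0.0265), and the cell cycle inhibitor Cdkn1c from 53.1 and 53.7 to 69.6 (0.37, adjusted p = 0.0249).

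In several smaller lists few genes were called, where 2.26% of all genes were called lower. None of 16 circadian genes was called; 9 of 16 lay below both controls, beside 52.1% of all genes, at a median of -0.14, and the output gene Dbp stood at 5.64, 6.48 and 3.86 RPKM (-0.54, adjusted p = 0.0644). Of 16 targets of NRF2 and metallothioneins, at a median of -0.14, the glutathione transferase Gsta4 fell from 68.4 and 60.9 to 46.3 RPKM (-0.47, adjusted p = 0.0209), a call lost under all 4 rescalings of the libraries. Of 11 Notch genes, at a median of -0.18, Hes6, a transcription factor of the Hes family, fell by 0.33 (adjusted p = 0.0479), and shLuc-Etn, at 33.1 RPKM, was lower than shEtnk1/2, at 35.6. The call of Hes6 was also lost under all 4 rescalings. The embryonic globin Hbb-y stood at 14.2 and 14.5 RPKM in the libraries labelled shLuc, 7.28 in shEtnk1/2 and 13.6 to 18.05 in the others. It fell by 0.89 (adjusted p = 0.00268), and how reads of similar globin genes were assigned is not given in the sources used here. Itm2a, a membrane protein of mesenchymal tissues, rose from 103 and 111 to 163 RPKM (0.60, adjusted p = 0.00299), and the calcium-binding protein gene Nucb2 rose by 0.68, with shLuc-Etn (24.2 RPKM) close to shEtnk1/2 (24.96). Aqp5, a water channel of secretory epithelia, rose as well, at low levels, from 1.22 and 1.77 to 3.82 RPKM (0.96, adjusted p = 0.0297).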
